A study of Mus musculus with 2 samples.

Results

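The chaperone and heat shock genes of the mouse were described in kidneys of E14.5 embryos. The members were the protein-coding genes whose symbols mark them as HSP90, HSP70, HSP110, small heat shock protein, J-domain (DNAJA, DNAJB and DNAJC) or chaperonin genes, with Tcp1 and the heat shock factors Hsf1 and Hsf2. The annotation held 83 such genes, and 82 had a row of their own among the 21474 protein-coding genes of the gene tables. The one without, Hspa14, and the chaperonin subunit Cct6a, which the annotation types as a processed transcript, are described apart.

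Total RNA came from 2 kidney samples of strain B6NCrl at E14.5, replicates 1 and 2 of 1 condition with no treatment named. Each sample was 2 kidneys taken from 1 pup, although the labels also call it a pool of both sexes. Both samples carry the same donor label and different collection days. Each library was made from 10 ng of mirVana-extracted RNA over 200 nt with spike-ins, and the protocol the labels link to is Smart-seq. With 2 samples of 1 group no difference could be tested, and none of the values below carries a p-value. Differences were judged by size and by the spread between the libraries, which may be technical in part. In bulk tissue, fewer cells of a type and less RNA per cell cannot be told apart.

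Chaperones bind unfolded or partly folded proteins and, mostly with the use of ATP, let them fold, move across membranes or pass to degradation. HSP70 proteins take their clients from J-domain proteins, HSP90 completes the folding of kinases and receptors, and the ring-shaped chaperonins enclose a client in a chamber. Several families pair a gene that is active in every cell with a paralog that heat shock factors induce under stress.

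Replicate 1 had 29718428 estimated counts and replicate 2 had 29204212, of which the members took 431345 and 402877. Markers of kidney lineages were present, with the nephron progenitor, early nephron and ureteric lists detected in full (6 of 6, 7 of 7 and 7 of 7 genes). Stroma markers were detected in 6 of 6 genes, endothelium markers in 5 of 5 and macrophage markers in 6 of 6. Erythroid genes were high (5 of 6 detected, summed 12276 and 10238 TPM, a transcript level corrected for length and library size). Adrenal and germ cell markers were detected in 0 of 6 genes each. Liver markers were detected in 4 of 4 genes, with summed levels of 31.2 and 19.8 TPM. Smooth muscle markers were detected in 4 of 5 genes, neuron and Schwann cell markers in 3 of 6, and ciliated cell markers in 2 of 6. Skeletal muscle markers were detected in 3 of 8 genes, with summed levels of 35.5 and 34.6 TPM over the list. The detected ones were Tnni1 at 14.3 and 14.9 TPM, Actc1 at 9.66 and 9.47 TPM, and Mylpf at 7.36 and 7.71 TPM. Among those not detected, Myod1 was at 0.26 and 0.28 TPM and Myog at 1.14 and 0.73 TPM. Of the spermatid list, Odf2 alone of 5 genes was detected, and Prm2 was listed at 0.

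Most of the chaperone genes were on in the embryonic kidney. A level of at least 1 TPM in both libraries was reached by 69 of the 82 members, beside 59% of all protein-coding genes. The median member had a mean level of 24.1 TPM, against 4.20 TPM for the median protein-coding gene. Among detected genes alone the medians were 33.4 TPM for members and 18.3 TPM for all. Members were 0.382% of protein-coding genes and held 1.49% of protein-coding TPM in replicate 1 and 1.31% in replicate 2 (1.40 ± 0.130%, SD, n = 2). The 5 highest members supplied 50.5% and 47.1% of the members' TPM, and Hspa8 alone 20.2% and 16.3%. One member ranked among the 50 highest protein-coding genes, 4 among the 200 highest and 14 among the 500 highest.

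**Figure D1:**
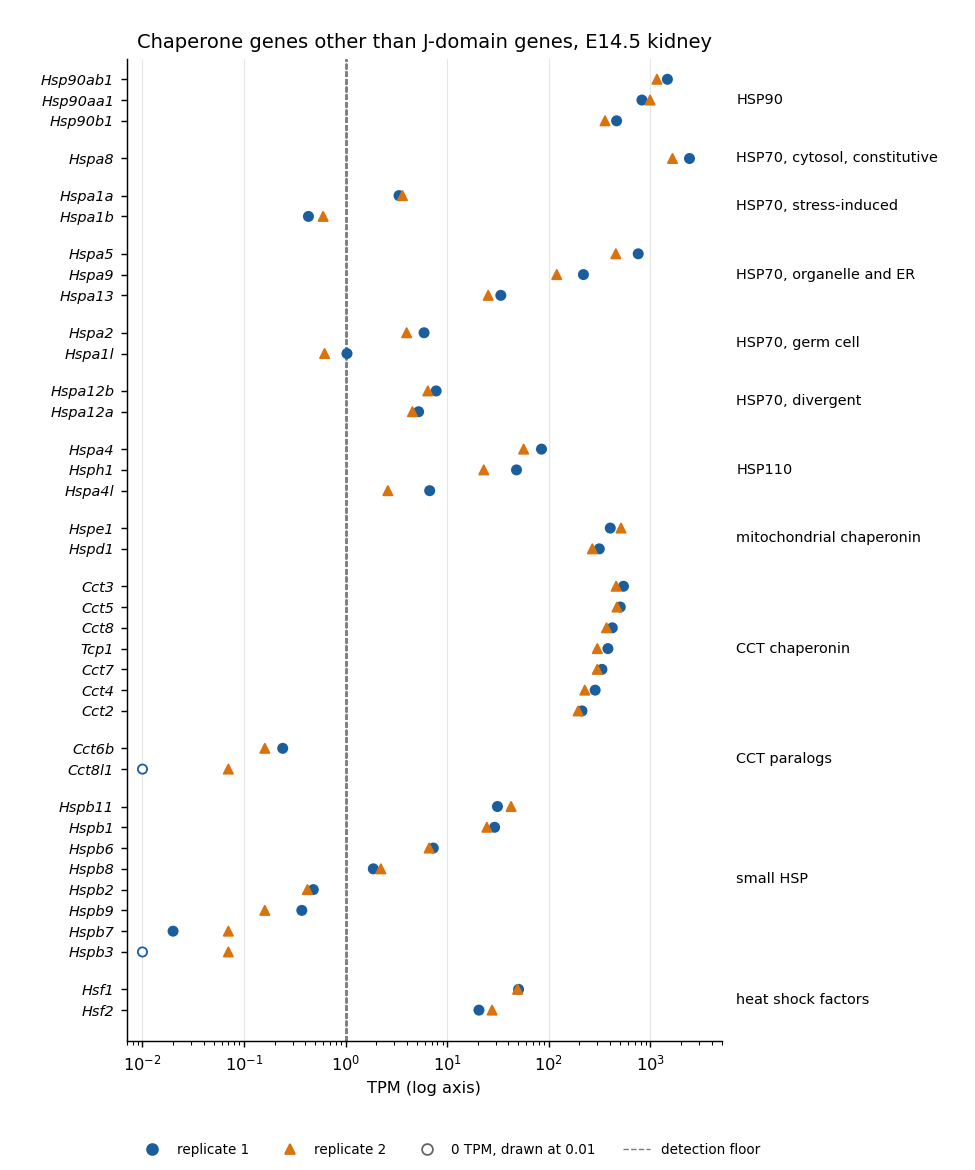
TPM on a log axis of the 37 members outside the J-domain families, grouped by role, with a circle for replicate 1 and a triangle for replicate 2; the dashed line is the 1 TPM floor and open symbols are values of 0. The HSP90 genes, Hspa8, the mitochondrial chaperonin and the 7 CCT ring members lie between 194 and 2399.7 TPM, while Hspa1a and Hspa1b lie at 3.62 TPM or lower and 4 small heat shock genes lie under the floor.

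The HSP90 genes were high. Hsp90ab1, the constitutive cytosolic form (ENSMUSG00000023944.10, chromosome 17, 45567775 to 45573271, minus strand, GRCm38), was at 1468 and 1158 TPM. Hsp90aa1, the cytosolic form that stress can raise (ENSMUSG00000021270.9, chromosome 12, 110690605 to 110702728, minus strand), was at 824 and 991 TPM. Hsp90b1, the form of the endoplasmic reticulum (ER), was at 464 and 357 TPM. Hsp90ab1 was above Hsp90aa1 in both libraries, 1.78-fold in replicate 1 and 1.17-fold in replicate 2 (1.48 ± 0.434, SD, n = 2). The ratio therefore had a spread close to the size of its excess over 1, and the levels of the genes moved in opposite directions between the libraries.

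The ratio was larger over transcripts that hold a complete coding sequence. Its leading transcript was Hsp90aa1-208, a 711 nt model with a coding sequence marked as cut short, which took 51.1% and 52.9% of the gene's TPM. Transcripts with a complete coding sequence held 31.3% and 36.4%, or 258 and 361 TPM. For Hsp90ab1 a single complete transcript, Hsp90ab1-201, held 87.4% and 86.2%. Over complete coding transcripts Hsp90ab1 exceeded Hsp90aa1 4.97-fold in replicate 1 and 2.76-fold in replicate 2. The coding sequences of Hsp90ab1-201 and Hsp90aa1-202 share 75.5% of aligned positions.

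Among the cytosolic HSP70 genes, the constitutive gene was far above the stress-induced pair. Hspa8, the constitutive HSP70 that also strips clathrin from vesicles (ENSMUSG00000015656.12, chromosome 9, 40800984 to 40810087, plus strand), had 2399.7 TPM in replicate 1 and 1625 TPM in replicate 2. It was the highest member in both libraries and ranked 22nd of all protein-coding genes. Hspa1a, which heat and many other stresses induce, was at 3.35 and 3.62 TPM. Its neighbour Hspa1b was at 0.43 and 0.60 TPM. The stress-induced genes thus stood near the floor in both libraries, Hspa1a above it and Hspa1b below.

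Hspa1a and Hspa1b are near copies, and the split between them depends on how shared reads were divided. They lie 9951 bases apart on the minus strand of chromosome 17, at 34969190 to 34972156 (ENSMUSG00000091971.3) and 34956436 to 34959238 (ENSMUSG00000090877.3). Their coding sequences differ at 11 of 1926 aligned positions (99.4% identity), and their whole transcripts share 84.9%. The deposited credibility intervals did not overlap within either library: Hspa1a spanned 2.70 to 3.70 TPM and Hspa1b 0.209 to 0.703 TPM in replicate 1. In replicate 2 the intervals were 2.96 to 3.96 TPM for Hspa1a and 0.337 to 0.90 TPM for Hspa1b. These intervals describe the estimate within a library, not the spread between samples. The sum of the pair, which does not rest on the split, was 3.78 and 4.22 TPM (4.0 ± 0.311, SD, n = 2). Hspa8 exceeded that sum 635-fold in replicate 1 and 385-fold in replicate 2. Over complete coding transcripts the ratios were 434 and 260. The coding sequences of Hspa1a and Hspa8-201 share 73.9% of aligned positions, fewer than those of Hspa1a and Hspa1b.

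The copies extend upstream of the gene starts. The 150 bases before each start are printed because they show the near identity and a short heat shock element; capitals mark the letters GAANNTTC, in RefSeq sequence of GRCm38.p6, minus strand, 5′ to 3′, at chr17:34972157-34972306 for Hspa1a and chr17:34959239-34959388 for Hspa1b.
Hspa1a: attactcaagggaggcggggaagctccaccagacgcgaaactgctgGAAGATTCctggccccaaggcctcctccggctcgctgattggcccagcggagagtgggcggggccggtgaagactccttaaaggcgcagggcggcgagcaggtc
Hspa1b: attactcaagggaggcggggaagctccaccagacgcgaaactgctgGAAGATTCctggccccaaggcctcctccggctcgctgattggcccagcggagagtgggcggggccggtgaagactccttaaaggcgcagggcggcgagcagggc
The stretches differ at 1 of 150 positions (99.3% identity), and both hold the element 104 bases before the start. Nearly identical upstream sequence stood beside levels that differed 7.79-fold in replicate 1 and 6.03-fold in replicate 2 between Hspa1a and Hspa1b, as the tables divide them.

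The complete transcripts of Hspa8 were themselves of different kinds. Hspa8-202 led with 54.9% and 58.2% of the gene's TPM. Its coding length is 1881 nt, shorter than the 1938 nt of Hspa8-201, which took 13.6% and 9.44%. A retained-intron model of 456 nt, Hspa8-204, took 24.04% and 24.08%. The introns of Hspa8 also host the small nucleolar RNAs Snord14c, Snord14d and Snord14e, which overlap annotated exons of the gene on the same strand.

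The HSP70 genes of other compartments were lower than Hspa8 and above the stress-induced pair. Hspa5, the ER HSP70 also called BiP, was at 757 and 456 TPM. Hspa9, the mitochondrial HSP70 mortalin, was at 219 and 120 TPM. Hspa13, a microsomal HSP70, was at 33.6 and 25.3 TPM. All of these were lower in replicate 2. Hspa5 was 3.46-fold and 3.82-fold above Hspa9.

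The germ cell and divergent HSP70 genes were low. Hspa2, which spermatocytes need, was at 5.91 and 3.98 TPM. Hspa1l, which lies 546 bases from Hspa1a and is known from spermatids, was at 1.03 and 0.62 TPM. It was the only member detected in 1 library and not in the other. The divergent HSP70 genes Hspa12b and Hspa12a were at 7.77 and 6.43 TPM and at 5.22 and 4.54 TPM. Hspa14, an HSP70 bound to ribosomes, had 6 transcripts in the transcript tables whose summed TPM was 93.4 and 78.5. They shared a gene row of 99.1 and 81.1 TPM with transcripts of another gene, Gm45902.

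HSP110 proteins exchange the nucleotide of HSP70. Hspa4 (ENSMUSG00000020361.9, chromosome 11, 53259814 to 53300457, minus strand), which is constitutive, was at 84.6 and 56.5 TPM. Hsph1 (ENSMUSG00000029657.11, chromosome 5, 149614287 to 149636376, minus strand), which is heat-inducible, was at 48.0 and 22.9 TPM. Hspa4l was at 6.71 and 2.60 TPM. At the gene level Hspa4 was above Hsph1 in both libraries, 1.76-fold and 2.47-fold. Over complete coding transcripts that order turned round in replicate 1: Hspa4 had 37.5 TPM and Hsph1 47.2 TPM, a ratio of 0.795. In replicate 2 the ratio was 1.5, with 33.9 TPM for Hspa4 and 22.6 TPM for Hsph1. Hspa4-203, a processed transcript of 3075 nt, led Hspa4 in replicate 1 with 47.0% and held 23.7% in replicate 2. Hspa4-201, the coding form, held 44.3% and 60.0%.

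**Figure D2:**
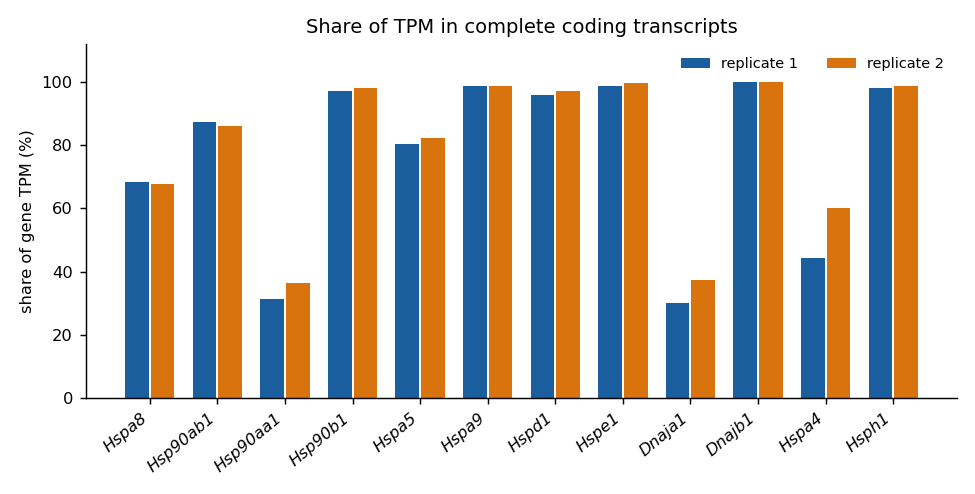
Share of each gene's TPM (%) in transcripts with a complete coding sequence, for 12 members that pair constitutive and stress-induced or organelle forms, in replicate 1 (blue, left) and replicate 2 (orange, right). Hsp90aa1 and Dnaja1 lie between 30.0% and 37.2%. Dnajb1, with a single transcript model, can only be at 100%.

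The mitochondrial chaperonin was high. Hspd1, the barrel subunit HSP60 (ENSMUSG00000025980.10, chromosome 1, 55077835 to 55088243, minus strand), was at 313 and 268 TPM. Hspe1, its HSP10 lid (ENSMUSG00000073676.4, chromosome 1, 55088132 to 55091307, plus strand), was at 402 and 513 TPM. The lid was 1.28-fold above the barrel in replicate 1 and 1.92-fold in replicate 2, since Hspe1 was higher and Hspd1 lower in replicate 2. Hspe1 has a 774 nt and Hspd1 a 2423 nt leading transcript, and the libraries differed by length as given below. By these coordinates the 5′ ends of the genes overlap on opposite strands, and whether counting used strand is not given.

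Hspd1 and Hspe1 point away from each other and share the stretch between their RefSeq starts. The gene coordinates given above differ from RefSeq here: in them the 5′ ends overlap, and the stretch lies inside Hspd1. The RefSeq starts are 215 bases apart, and that stretch is printed because both genes have a heat shock element of 3 alternating units in it. Capitals mark the overlapping matches to GAANNTTCNNGAA or its reverse complement TTCNNGAANNTTC (chr1:55087933-55088147, GRCm38.p6, plus strand, read toward Hspe1).
Hspd1-Hspe1: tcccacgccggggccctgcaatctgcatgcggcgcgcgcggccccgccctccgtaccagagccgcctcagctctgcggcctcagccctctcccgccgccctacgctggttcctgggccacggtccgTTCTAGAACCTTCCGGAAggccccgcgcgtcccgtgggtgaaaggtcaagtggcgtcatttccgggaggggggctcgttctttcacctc
The same search covered the RefSeq promoters of 66 members, from 250 bases before to 50 bases after the start, on both strands. It found the 3-unit element in 4 members, Hspd1, Hspe1, Hsph1 and Dnajb6 (6.06% of those searched). The share was 0.662% of all 27025 genes with a promoter and 0.603% of 32851 promoters. Hspd1 and Hspe1 count as separate members here, although their matches are the same bases. Dnajb6 holds the element within the 150 bases before a RefSeq start (chr5:29735748-29735897, plus strand). The GENCODE start of Dnajb6, 29735688, lies before that stretch. Hsph1 holds the element after its RefSeq start (chr5:149636287-149636308, minus strand). The matches are in capitals.
Dnajb6: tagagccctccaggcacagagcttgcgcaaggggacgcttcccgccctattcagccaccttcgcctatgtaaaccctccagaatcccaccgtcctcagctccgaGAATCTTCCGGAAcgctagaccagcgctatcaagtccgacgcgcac
Hsph1: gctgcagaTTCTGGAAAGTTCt
A search for 2 units alone (GAANNTTC or TTCNNGAA), each of which also lies inside the 3-unit element, found 19 members (28.8%) against 17.0% of all genes. The genes with the 3-unit element had mean levels from 35.4 TPM (Hsph1) to 457 TPM (Hspe1), so they were among both the middle and the high members. No promoter was in the table for 16 members, among them Hspa8, Hsp90aa1 and Hsp90ab1. A match is a description of the letters and not evidence of binding.

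The cytosolic chaperonin CCT, also called TRiC, folds actin and tubulin with a ring of 8 different subunits. Its members lay within a 2.56-fold range in replicate 1 and a 2.41-fold range in replicate 2. Whether that range is narrow for a complex was not tested. Cct3 was at 542 and 459 TPM, Cct5 at 504 and 468 TPM, and Cct8 at 421 and 369 TPM. Tcp1, the alpha subunit, was at 381 and 300 TPM. Cct7 was at 333 and 299 TPM, Cct4 at 285 and 226 TPM, and Cct2 at 212 and 194 TPM. The zeta subunit Cct6a, outside the members by its type, was at 435 and 322 TPM and completes the ring.

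Over the 8 subunits the highest exceeded the lowest 2.56-fold in replicate 1 and 2.41-fold in replicate 2 (2.49 ± 0.104, SD, n = 2). The coefficient of variation across subunits was 28.4% and 30.0%. The order of the subunits was nearly the same in both libraries (Spearman's rho 0.952 over 8 subunits, a description). Cct3 and Cct5 changed places at the top, as did Cct8 and Cct6a at places 3 and 4, and their levels do not differ beyond the spread between the libraries. Tcp1, Cct7, Cct4 and Cct2 kept places 5 to 8, with Cct2 lowest in both libraries.

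**Figure D3:**
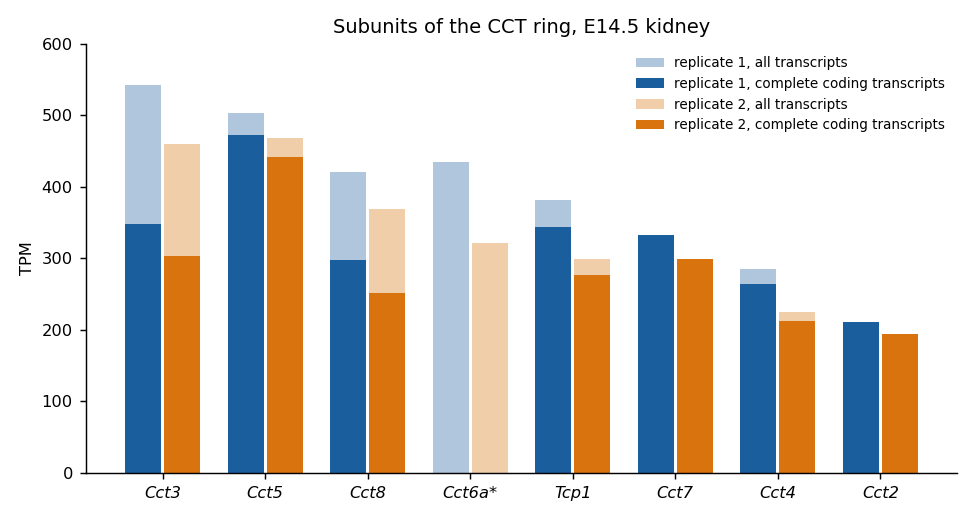
TPM of the 8 subunits of the CCT ring in replicate 1 (blue) and replicate 2 (orange), as bars from 0; pale bars are all transcripts of the gene and solid bars the transcripts with a complete coding sequence. The asterisk marks Cct6a, whose single transcript is typed as processed; Cct3 is the highest over all transcripts in replicate 1 at 542 TPM, and Cct5 the highest over complete coding transcripts in both libraries at 472 and 443 TPM.

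The order at the top was different over transcripts with a complete coding sequence. Cct3-203, a retained-intron model of 472 nt, held 33.9% and 32.5% of Cct3. Cct8-209, typed for nonsense-mediated decay, held 26.9% and 29.4% of Cct8. Over complete coding transcripts Cct5 was the highest of 7 subunits, at 472 and 443 TPM, and Cct3 had 348 and 304 TPM. The ratio of highest to lowest was then 2.23 and 2.28, a little narrower. The paralogs Cct6b and Cct8l1, known from testis, were below the floor: Cct6b was at 0.24 and 0.16 TPM, and Cct8l1 at 0 and 0.07 TPM.

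The small heat shock proteins, which hold unfolded proteins without ATP, were the lowest of the larger families. Their median mean level was 1.25 TPM, beside 4.20 TPM for all protein-coding genes. Of the 8 genes 4 were detected, a share near the 59% of all protein-coding genes. Hspb11, an intraflagellar transport subunit (IFT25) with a small heat shock gene symbol, was at 31.2 and 42.4 TPM. Hspb1, the stress-responsive HSP27, was at 29.2 and 24.5 TPM. Hspb6 was at 7.28 and 6.63 TPM, and Hspb8, which works with Bag3, at 1.87 and 2.22 TPM. The muscle and testis members were near 0: Hspb2 was at 0.48 and 0.42 TPM, Hspb9 at 0.37 and 0.16 TPM, Hspb7 at 0.02 and 0.07 TPM, and Hspb3 at 0 and 0.07 TPM. Hspb2 overlaps Cryab, a crystallin at 11.1 and 8.46 TPM, on the opposite strand.

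Hsf1, the factor that drives the heat shock response, was at 50.3 and 49.2 TPM. Hsf2, known for roles in development, was at 20.5 and 27.6 TPM. Hsf1 was above Hsf2 in both libraries, 2.46-fold and 1.78-fold. Of 7 further factors and regulators 3 were detected: Hsbp1, which binds HSF1, at 225 and 263 TPM, Ier5 at 10.3 and 11.1 TPM, and Sirt1 at 8.36 and 9.39 TPM. Hsf3, Hsf4 and Hsf5 were not detected, with Hsf4 at 0.04 TPM in both libraries.

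J-domain proteins bring clients to HSP70 and start its ATP cycle. Their 45 genes ran from 0 TPM to 371 TPM in mean level. The detected counts of each class stand beside 59% of all protein-coding genes. In class A all 4 were detected. Dnaja1, the main cytosolic partner of Hspa8, was at 380 and 362 TPM, and Dnaja2 at 123 and 99.8 TPM. Dnaja3, which is mitochondrial, was at 54.3 and 34.7 TPM, and Dnaja4 at 2.39 and 1.42 TPM.

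In class B 11 of 13 were detected, with a median mean level of 10.6 TPM. Dnajb6, which keeps polyglutamine proteins from aggregating, was at 110 and 96.7 TPM, and Dnajb11, of the ER lumen, at 88.4 and 55.1 TPM. Dnajb1, the stress-induced HSP40, was at 51.2 and 42.3 TPM. Dnajb12 was at 28.0 and 18.1 TPM, Dnajb9 at 25.1 and 19.1 TPM, and Dnajb4 at 17.8 and 16.1 TPM. At the low end Dnajb7 was at 1.17 and 1.01 TPM, and Dnajb13, an axonemal protein, at 0.05 and 0.17 TPM. Dnajb8 had no counts in either library, which allows up to 0.173 TPM in replicate 1 and 0.15 TPM in replicate 2.

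The constitutive Dnaja1 exceeded the stress-induced Dnajb1 7.42-fold and 8.56-fold (7.99 ± 0.806, SD, n = 2). Of the Dnaja1 level, 30.0% and 37.2% came from complete coding transcripts, over 10 transcript models. Dnajb1 has 1 model, which is complete, so its share of 100% was fixed by the annotation. The leading model of Dnaja1, Dnaja1-205, is 916 nt long with a coding sequence cut short, and held 38.03% and 42.31%. Over complete coding transcripts the ratio was 2.23 and 3.18. Unlike Hspa1a and Hspa1b, the inducible Dnajb1 was well above the floor, at 13.5 and 10.0 times the summed Hspa1a and Hspa1b level.

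**Figure D4:**
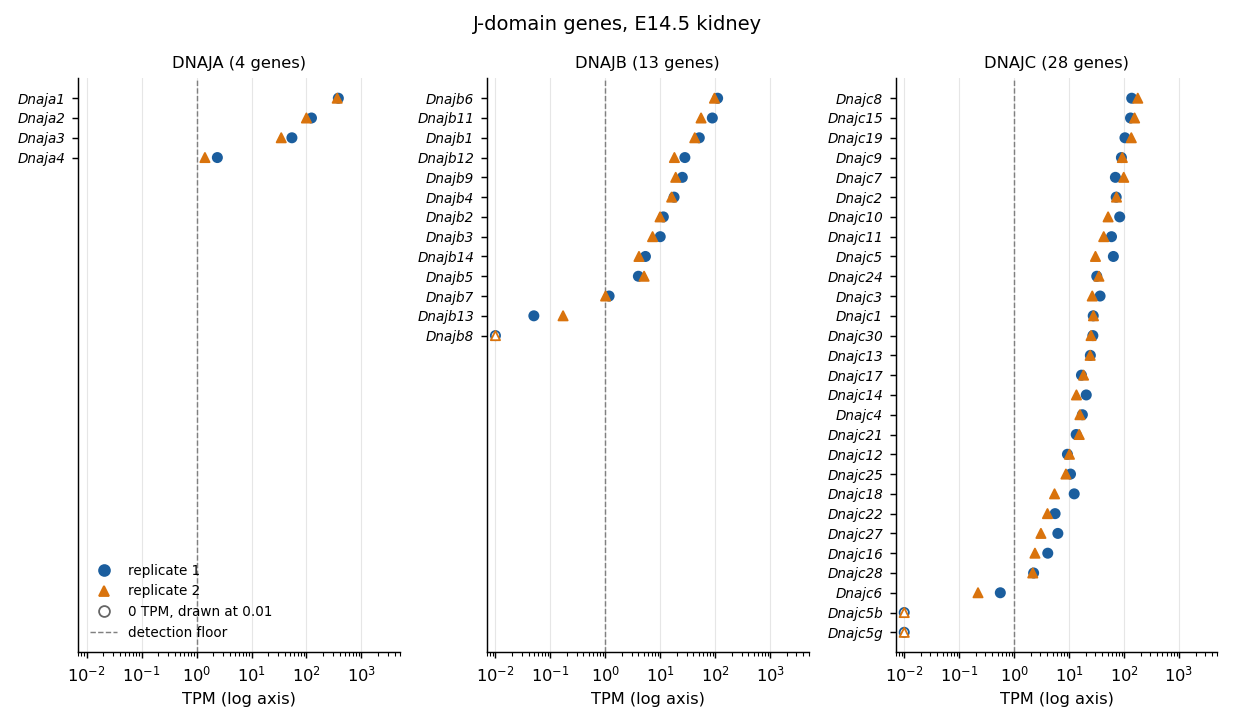
TPM on a log axis of the 45 J-domain genes by class, with a circle for replicate 1 and a triangle for replicate 2; the dashed line is the 1 TPM floor and open symbols are values of 0. Dnaja1 is the highest at 380 and 362 TPM, and 5 of the 45 genes (Dnajb13, Dnajb8, Dnajc6, Dnajc5b and Dnajc5g) lie under the floor.

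In class C 25 of 28 were detected, with a median mean level of 20.9 TPM, and the leading genes were not those of heat shock. Dnajc8, a splicing protein, was at 138 and 178 TPM. Dnajc15 and Dnajc19, of the mitochondrial import motor, were at 131 and 155 TPM and at 104 and 135 TPM. Dnajc9, a histone chaperone, was at 89.5 and 93.0 TPM. Dnajc7, which has tetratricopeptide repeats, was at 69.5 and 98.6 TPM, and Dnajc2, which sits on ribosomes, at 71.9 and 72.8 TPM. The lowest were Dnajc6, the auxilin of neurons, at 0.56 and 0.22 TPM, and Dnajc5b and Dnajc5g with no counts in either library. The limits that no counts allow were 0.185 and 0.160 TPM for Dnajc5b and 0.193 and 0.167 TPM for Dnajc5g.

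The co-chaperones that serve these families were detected almost throughout, beside 59% of all protein-coding genes. Of genes that work with HSP90, 23 of 23 were detected with a median mean level of 62.6 TPM, led by Ptges3 (p23) at 445 and 467 TPM. Fkbp4 followed at 399 and 291 TPM and Stip1, which joins HSP70 to HSP90, at 232 and 163 TPM. Unc45b, the myosin chaperone of muscle, was lowest at 2.00 and 1.87 TPM. Of HSP70 co-chaperones 15 of 15 were detected (median 58.1 TPM), led by the ubiquitin ligase Stub1 at 201 and 233 TPM. Bag1, a nucleotide exchange factor, was at 189 and 170 TPM and St13 at 130 and 133 TPM. The stress-induced Bag3 was lowest at 8.88 and 7.79 TPM. Of chaperonin partners 12 of 13 were detected (median 97.9 TPM), led by the prefoldin subunits Pfdn5 at 375 and 425 TPM and Vbp1 at 146 and 147 TPM. Pdcl3 was at 131 and 155 TPM and Pdcl2 was listed at 0. ER folding genes were detected in 16 of 16 cases (median 204 TPM), with Calr at 734 and 558 TPM, P4hb at 583 and 447 TPM, Pdia3 at 415 and 410 TPM, and Ero1lb lowest at 3.34 and 1.96 TPM.

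Lists of other stress genes were mixed in level, and their detected counts stand beside 59% of all protein-coding genes. Of 22 immediate early genes 18 were detected, with a median mean level of 6.38 TPM. Myc was at 90.7 and 85.1 TPM, Ier2 at 64.4 and 66.7 TPM, Jund at 43.7 and 34.2 TPM, and Fosb at 0.06 and 0.10 TPM. Of 14 genes of the unfolded protein response 12 were detected (median 13.4 TPM). Xbp1 was at 137 and 106 TPM, Atf4 at 102 and 107 TPM, Sel1l at 67.5 and 62.2 TPM, and Trib3 at 0.45 and 0.46 TPM. All 8 oxidative and metal stress genes were detected (median 39.5 TPM). Sqstm1 was at 159 and 99.0 TPM, Mt1 at 132 and 93.0 TPM, Txnrd1 at 99.0 and 50.1 TPM, and Srxn1 lowest at 7.44 and 3.48 TPM. The crystallin Cryaa was listed at 0, Odf1 was at 0 and 0.04 TPM, and Hspbap1 was at 6.45 and 4.04 TPM.

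The libraries were set side by side with a rule of size: a 2-fold difference of TPM + 1, with 5 TPM or more in the higher of the libraries. By this rule 4 members were apart (4.88%), beside 2.33% of all protein-coding genes, and all 4 were lower in replicate 2, as were 2.1% of protein-coding genes. Among genes at a mean of 1 TPM or more, the shares apart and lower in replicate 2 were 5.80% of 69 members and 3.47% of 12995 genes. Dnajc5, the cysteine string protein, was at 63.9 and 30.2 TPM (log2 ratio -1.06). Dnajc18 was at 12.4 and 5.43 TPM (-1.06), Hsph1 at 48.0 and 22.9 TPM (-1.04) and Hspa4l at 6.71 and 2.60 TPM (-1.10). The next largest differences were those of Hspa9 (-0.87), Dnajc27 (-0.83, at 6.24 and 3.07 TPM) and Hspa5 (-0.73), all lower in replicate 2. None of the 4 stayed apart with counts scaled by TMM or DESeq2 size factors and effective length averaged over the libraries. Hsph1 then had -0.73 and -0.76, Dnajc18 -0.78 and -0.80, Dnajc5 -0.54 and -0.57, and Hspa4l -0.28 and -0.31. The parts of scaling and of length averaging were not separated. Effective length was 3893 nt in replicate 1 and 6310 nt in replicate 2 for Hspa4l. It was 4088 and 4731 nt for Dnajc5, 3710 and 3707 nt for Hsph1, and 5070 nt in both for Dnajc18.

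Most protein-coding genes were lower in replicate 2 as well. The median log2 ratio of TPM + 1, replicate 2 over replicate 1, was -0.23 over 69 members and -0.29 over 12995 protein-coding genes. Of the members 51 were lower and 18 higher in replicate 2 (73.9% lower, beside 76.3% of protein-coding genes). TMM scaling with averaged effective length moved the median of all protein-coding genes up by 0.26, to -0.02, and that of members to 0.09. By it 27 members were lower and 42 higher (39.1% lower, beside 52.4%). Relative to the median of all genes in TPM, Hsph1 was at -0.75, Hspa5 at -0.44, Hspa8 at -0.27 and Hsp90ab1 at -0.05. On the same relative scale Hspe1 was at 0.64 and Hsp90aa1 at 0.56, the other direction.

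The difference also went with length. Members under 1000 nt of effective length had a median log2 ratio of 0.13 (9 genes), those of 1000 to 2500 nt -0.15 (36 genes), and longer ones -0.47 (24 genes). All protein-coding genes had medians of 0.15, -0.18 and -0.50 in the same classes. Across the 69 members the log2 ratio and log2 length had a Pearson's r of -0.63 and a Spearman's rho of -0.62, as a description over genes that share both libraries. The 4 members apart had a median effective length of 4740 nt, against 1993 nt for the 69. The part of length in these 4 differences was not tested.

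**Figure D5:**
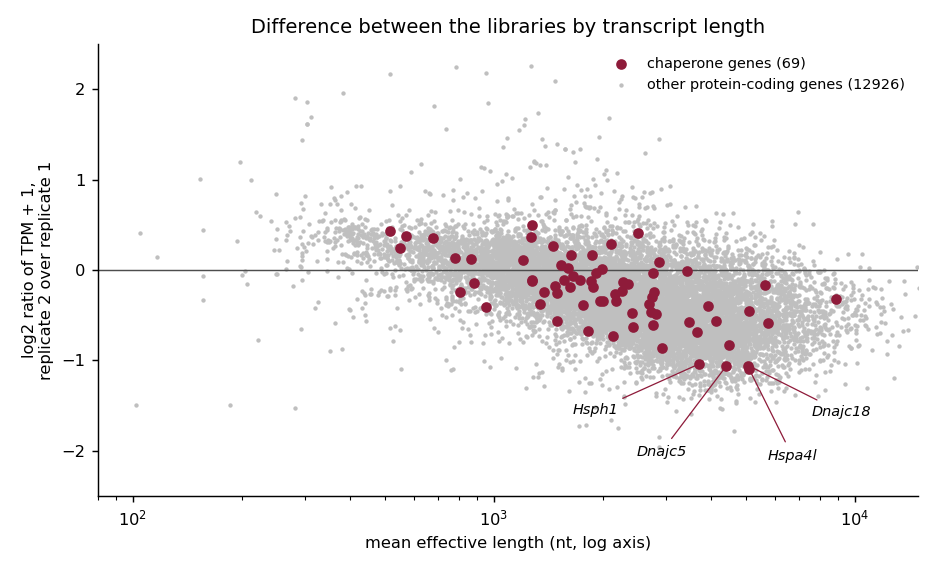
Log2 ratio of TPM + 1, replicate 2 over replicate 1, against mean effective length (nt, log axis) for 69 chaperone genes (dark red) and 12926 other protein-coding genes (grey, 18 outside the axes). Ratios lie lower at greater length in both sets, and the 4 labelled members apart between the libraries are long and lie near -1.

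The leading transcript was mostly the same in both libraries. Of 42 members with at least 2 transcripts and 5 TPM in both libraries, 38 had the same leading transcript (90.5%, beside 89.3% of protein-coding genes). The 4 that changed were Hspa4, Dnajc5, Dnajc13 and Dnajc25. Dnajc5 was led by Dnajc5-204, typed for nonsense-mediated decay, in replicate 1 (45.2%) and by the coding Dnajc5-201 in replicate 2 (47.1%). Dnajc13, an endosomal protein, was led by the 8012 nt Dnajc13-201 in replicate 1 (53.2%) and by the 492 nt Dnajc13-207 in replicate 2 (27.6%). Dnajc25 passed from the 385 nt Dnajc25-202 (54.6%) to Dnajc25-204 (40.0%). Hspa4l, under 5 TPM in replicate 2, was led there by a transcript of 9479 nt that the annotation used here does not hold (55.4%), and in replicate 1 by Hspa4l-201 (37.7%).

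Of 56 members at 5 TPM or more in both libraries, the median had 95.3% of its TPM in complete coding transcripts, beside 94.9% for protein-coding genes. For 7 of them the mean share over both libraries was under 50% (12.5%, beside 12.6% of protein-coding genes), so that the members were close to the background here. These were Dnajc15, Dnajc1, Dnaja1, Hsp90aa1, Dnajc7, Dnajc13 and Dnajc24. Dnajc13 was under 50% in replicate 2 alone (53.2% and 26.3%), and Hspa4 (44.3% and 60.0%) and Dnajc25 (36.4% and 64.1%) in replicate 1 alone. Dnajc15 has 1 transcript model, typed for nonsense-mediated decay, which took 100% in both libraries. Its complete coding share of 0% was therefore fixed by the annotation, as was its place among the 7. Dnajc1, of the ER membrane, was led by Dnajc1-201 of the same type (33.6% and 37.6%), with 18.5% and 18.4% in complete coding transcripts. Dnajb13, below the floor, was led by a processed transcript.

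Some values depend on how reads of overlapping or similar genes were shared. Exons of 28 members overlap a gene on the opposite strand and those of 9 members a gene on the same strand. Pseudogenes were taken by symbol, so any that do not carry a member's name are not covered. Of 15 annotated pseudogenes taken in this way, 11 were in the tables with a summed level of 10.3 and 8.83 TPM. The highest were Dnajc19-ps at 4.22 and 4.4 TPM and Hspd1-ps3 at 4.81 and 3.21 TPM, far below the 104 and 135 TPM of Dnajc19 and the 313 and 268 TPM of Hspd1.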

How the data were processed

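Total RNA-seq of 2 E14.5 kidney samples was analysed from the gene and transcript tables. Per the labels the genome build was mm10; the annotation, per the deposited files, was GENCODE M4. Quantification tool: not given in the sources used here, nor is the use of strand. The deposited expected counts are estimated, not whole, numbers of reads per feature. The deposited TPM and FPKM values are scaled by length and library, and the deposited posterior mean TPM is a second estimate. The deposited bounds of the TPM credibility interval are a signal on the same scale, of unstated level. In the transcript tables, the deposited isoform percent gives each transcript's part of the TPM of its gene.

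Symbols, types and 1-based coordinates came from GENCODE M21 on GRCm38, and promoters from RefSeq (GRCm38.p6). Of 347 member transcripts 18 had no match, and 27 differed in length. A complete coding transcript has the protein-coding type and a coding sequence not marked as cut short. Members at 1 TPM in both libraries were called detected. Log2 ratios used a pseudocount of 1 TPM. TMM factors came from edgeR 4.0.16 and size factors from DESeq2 1.42.0, both on counts rounded to whole numbers. The scaled counts were then divided by effective length averaged over the libraries, so these ratios differ from those in TPM in length as well as scaling. No count test was possible. A count of 0 was taken to allow 3 counts, and such limits cover counting error only.

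Members and lists were chosen with earlier results of these data known. Genes were named by a rule: all members outside the J-domain classes, the 6 highest and 3 lowest of each class, the members apart or with the 5 largest differences, those with a changed or non-coding leading transcript, and the 3 highest and 1 lowest of each other list. A few others were named after their values were seen. Protein sequences were not analysed here.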

Additional observations from a re-analysis of the deposited data

How the results depend on the processing

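No paired analysis was possible because both samples belong to 1 group. With 2 libraries, no alternative carries a test. Detection (56 to 70 members) and the role lists above the protein-coding median (11 of 15) stayed within 1.5 times under every alternative run, although neither had room to rise that far. The detected count was 69 to 70 without a replicate. The leading transcript was unchanged in 38 of 42 members, in 46 of 51 at a floor of 1 TPM and in 29 of 32 at 20 TPM. These counts rest on different totals. The median member level was 33.4 TPM over detected members, 17.3 in FPKM, 33.1 TPM when rescaled to nuclear protein-coding genes without haemoglobin, and 23.5 to 26.1 TPM without a replicate. The members' share was 1.60% of expected counts and 1.31% to 1.49% without a replicate. Without a replicate the ratios were 385 to 635 (Hspa8), 1.17 to 1.78 (Hsp90ab1), 1.76 to 2.47 (Hspa4) and 7.42 to 8.56 (Dnaja1), and the ring ratio 2.41 to 2.56. Complete coding transcripts, chosen after seeing the data, gave mean ratios of 3.87 for Hsp90ab1 over Hsp90aa1, 1.15 for Hspa4 over Hsph1 and 2.70 for Dnaja1 over Dnajb1. The ring ratio over 7 subunits was 2.28 for protein-coding and 2.26 for complete coding transcripts. The members apart numbered 11 at a fold of 1.5 (13.4%, beside 13.3% of protein-coding genes), 5 with a pseudocount of 0.1 (beside 3.28%), 3 with posterior mean TPM (beside 2.04%), and 0 with TMM (0.815%) and 0 with DESeq2 scaling (0.834%). The members' median log2 ratio turned to 0.088 with TMM and 0.064 with DESeq2 scaling, where effective length was averaged over the libraries. Chosen after seeing the data, it was -0.47 at 2500 nt or more and 0.13 under 1000 nt. The shorter heat shock element was in 19 members rather than 4. The cause of these changes was not tested. Depth limits the genes at or under the floor, where a few counts decide the level.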
